A study of Mus musculus with 16 samples.

Results

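The repressive histone mark H3K9me3 was mapped against a non-specific IgG control on the autosomes of wild-type (WT) mouse spermatids, in 4 of the 16 libraries of the series: 2 with an antibody to H3K9me3 and 2 with IgG. The libraries were chosen by their labels alone. Haploid spermatids had been sorted live from the testes of 2-month-old males that had never been mated, by Hoechst DNA content, the red shift of the dye and propidium iodide. The animals were WT siblings of mice lacking H2A.B, from stocks crossed back to C57BL/6J, and replicates 1 and 2 are 1 animal each. The assay, AutoCUT&RUN, tethers a nuclease to an antibody on chromatin and sequences the short fragments that it releases. Fragments with distinct coordinates were assigned to 10-kb bins along chromosomes 1 to 19, and levels are given as fragments per 1000000 distinct autosomal fragments of the same library (FPM).

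Trimethylated lysine 9 of histone H3 is the hallmark of constitutive heterochromatin. In most mouse cells it covers the satellite arrays around centromeres and transposable elements. In some cells it also covers arrays of duplicated genes, such as those for zinc finger proteins, olfactory receptors and vomeronasal receptors. HP1 proteins read the mark, and SUV39H and SETDB1 enzymes write it. Spermatids later replace most of their histones with transition proteins and protamines.

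The H3K9me3 libraries held 3761745 and 3136799 distinct autosomal fragments, and the IgG libraries 140669 and 140181. Autosomes carried 61.2% and 62.6% of the distinct H3K9me3 fragments against 86.7% and 87.8% of those of IgG. The IgG libraries averaged 0.585 and 0.584 fragments per bin over 239597 bins, so 71.9% and 65.7% of bins held none, and 1 IgG fragment was worth 7.11 or 7.13 FPM. The H3K9me3 libraries averaged 15.7 and 13.1 fragments per bin, and the medians were 3 and 4. The identity of the sorted cells was checked on H3K4me3, a mark of active promoters, from the same 2 animals: the 8 spermatid genes carried medians of 8 and 38 fragments within 1 kb of their start sites against 2 and 6 over all coding genes, although the protamine gene Prm1 carried 2 and 3. The 4 spermatocyte genes carried 6.5 and 28.5, the 4 spermatogonial genes 1.5 and 1, the 4 Sertoli cell genes 0 and 1.5, and the 4 Leydig cell genes and 3 blood genes had medians of 0 in both libraries.

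Sequences beneath dense H3K9me3 signal are shown by 5 stretches from the GRCm38 assembly (mm10, the build of the deposited fragments), plus strand, with every CpG in capitals. The first is 1 repeat unit at the start of the densest autosomal bin, in the array at the centromere-proximal end of the chromosome 9 sequence. The others are the 300 bases with most H3K9me3 fragments in bins away from that array, and their counts chose them; not every dense bin is represented.
repeat unit, chr9:3000001-3000234: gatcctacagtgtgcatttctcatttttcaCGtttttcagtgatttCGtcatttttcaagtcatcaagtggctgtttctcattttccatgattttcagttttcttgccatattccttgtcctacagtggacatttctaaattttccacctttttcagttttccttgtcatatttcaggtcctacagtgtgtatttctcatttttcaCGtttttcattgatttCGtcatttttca
pericentromeric end of chromosome 4, chr4:3090001-3090300: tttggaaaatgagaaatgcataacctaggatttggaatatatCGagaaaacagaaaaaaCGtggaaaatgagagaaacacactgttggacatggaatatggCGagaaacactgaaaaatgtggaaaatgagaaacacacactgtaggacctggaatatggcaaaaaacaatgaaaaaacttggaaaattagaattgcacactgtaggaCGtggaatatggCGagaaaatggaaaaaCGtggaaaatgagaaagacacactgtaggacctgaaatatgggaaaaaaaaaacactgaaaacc
chromosome 5 duplicated region, chr5:15006523-15006822: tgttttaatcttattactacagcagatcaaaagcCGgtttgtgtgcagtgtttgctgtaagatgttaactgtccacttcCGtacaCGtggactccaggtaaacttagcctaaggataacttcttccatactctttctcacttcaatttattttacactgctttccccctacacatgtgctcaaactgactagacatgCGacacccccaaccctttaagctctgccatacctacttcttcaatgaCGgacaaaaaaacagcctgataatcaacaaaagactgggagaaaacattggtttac
chromosome 15 between Ly6 genes, chr15:75086660-75086959: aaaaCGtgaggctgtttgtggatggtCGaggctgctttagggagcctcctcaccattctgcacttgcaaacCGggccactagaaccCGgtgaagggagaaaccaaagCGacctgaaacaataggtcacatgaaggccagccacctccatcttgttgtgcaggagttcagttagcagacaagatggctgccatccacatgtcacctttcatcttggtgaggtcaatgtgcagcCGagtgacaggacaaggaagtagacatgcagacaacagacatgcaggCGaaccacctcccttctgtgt
chromosome 17 simple repeat, chr17:13552652-13552951: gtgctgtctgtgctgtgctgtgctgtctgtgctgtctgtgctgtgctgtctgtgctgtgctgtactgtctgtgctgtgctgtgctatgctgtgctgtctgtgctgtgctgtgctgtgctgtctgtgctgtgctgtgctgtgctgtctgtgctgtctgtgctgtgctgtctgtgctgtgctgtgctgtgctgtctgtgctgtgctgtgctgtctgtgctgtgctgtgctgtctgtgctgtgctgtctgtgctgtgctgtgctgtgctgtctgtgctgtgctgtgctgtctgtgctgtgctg

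The repeat unit is AT-rich (34.2% GC) with 4 CpG dinucleotides, and it drew 2139 and 2103 fragments in the H3K9me3 libraries against 54 and 32 in the IgG libraries, which is 569 and 670 FPM against 384 and 228 FPM. The chromosome 4 stretch holds 6 CpGs, is intergenic and drew 532 and 441 fragments against 2 and 0. The chromosome 5 stretch, also intergenic, drew 165 and 93 fragments against 0 and 0. The chromosome 15 stretch drew 809 and 457 fragments against 4 and 0, and the chromosome 17 stretch, in an intron of the lincRNAs 2700054A10Rik and AC174800.1, drew 1064 and 564 against 4 and 2. The chromosome 17 stretch has no CpG, and none of its 276 25-base words occurs only once in the assembly (median 56 copies), whereas 246 of the 276 words of the chromosome 4 stretch do. The chromosome 4 stretch is still not free of repeats: its words reach 85 copies, and its bin shares 0.41% of words with the densest bin. The reads were 25 bases long, so fragments in multi-copy sequence could have come from any copy, including copies missing from the assembly.

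H3K9me3 fragments were concentrated in a small part of the autosomes. To keep a library from being measured in bins that its own counts had chosen, bins were ranked by the H3K9me3 library of the other animal. IgG and the other marks were measured in the same ranking. The order therefore favoured H3K9me3, and how concentrated IgG was in bins of its own was not measured. The top 1% of bins (2396) then held 37.2% and 37.2% of the fragments of the H3K9me3 libraries, against 16.8% and 13.8% of those of the IgG libraries. The difference was 21.9 percentage points, with both H3K9me3 libraries above both IgG libraries (exact two-sided permutation test, p = 0.33, the smallest that 2 against 2 libraries can give). The same bins held 3.35% and 4.07% of the fragments of H3K27me3, the Polycomb mark, and 6.52% and 3.84% of those of H3K4me3. The top 0.1% (240 bins) held 24.3% and 26.0% against 14.5% and 11.6%, and the top 10% held 73.1% and 66.1% against 33.3% and 31.3%. With every deposited fragment counted, repeats included, the top 1% held 52.9% and 53.4% against 7.63% and 5.82%.

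**Figure D1:**
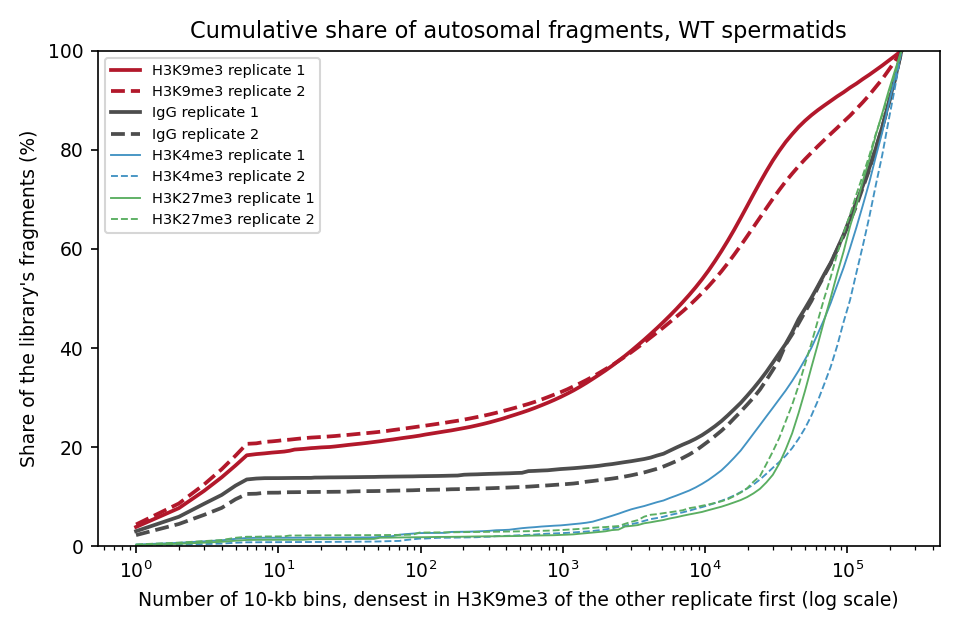
Cumulative share of distinct autosomal fragments (%) against the number of 10-kb bins (log axis), with bins ranked by the H3K9me3 library of the other animal; each line is 1 WT library. At 2396 bins, 1% of all, the H3K9me3 lines stand at 37.2% and 37.2%, the IgG lines at 16.8% and 13.8%, and the H3K27me3 and H3K4me3 lines lie below 7%.

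The top 1% lists of the 2 H3K9me3 libraries shared 1987 bins (82.9% of either list), and those of the 2 IgG libraries shared 491 (20.5%). The 1987 shared bins are called dense bins below. The last bin inside the list and the first outside it held equal counts, 149 and 149 fragments in replicate 1 and 111 and 111 in replicate 2. In the IgG lists these counts were only 5 and 5 in replicate 1 and 4 and 4 in replicate 2. The order of tied bins thus decided part of the IgG lists. Across all bins the rank correlation was 0.652 between the H3K9me3 libraries and 0.169 between the IgG libraries, and in 100-kb windows it was 0.895 and 0.337. These values describe bins that share their depth and mappability.

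The very densest bins were satellite sequence, and there the IgG libraries were dense too. The densest bin, chr9:3000001-3010000, repeats itself every 234 bp (66.6% identity at that shift against a median of 31.3% over other shifts), the unit length of mouse major satellite, the DNA of pericentromeric heterochromatin. A further 5 bins shared at least 5% of their 25-base words with it: the next 3 on chromosome 9, chr2:98660001-98670000 and chr14:19410001-19420000. The densest bin held 39009 and 44041 FPM in the H3K9me3 libraries and 30476 and 22628 FPM in the IgG libraries. It had been picked for its H3K9me3 level, and its log2 difference was 0.64 (negative binomial test, adjusted p = 0.281). The 100-kb window with the chromosome 14 satellite bin was called higher, at 20579 and 23865 FPM against 12462 and 10729 FPM (log2 0.94, SE 0.16, limma-voom adjusted p = 0.0343). Among predicted genes in the satellite bins, the gene bodies of Gm10717, Gm21738 and Gm10715 passed the negative binomial test, with log2 differences of 0.93, 0.92 and 0.84, while the other 9 coding genes there did not (0.23 to 0.71, adjusted p 0.104 to 0.595). Together the 6 satellite bins took 18.4% and 20.7% of the distinct H3K9me3 fragments and 13.5% and 10.6% of those of IgG, but 1.28% and 1.94% of H3K27me3 and 1.69% and 0.816% of H3K4me3. Of the deposited fragments with repeats they took 36.9% and 39.6% in H3K9me3 and 5.60% and 4.06% in IgG. Repeated coordinates made up 73.5% and 71.8% of the H3K9me3 fragments in these bins against 31.0% and 29.2% elsewhere, whereas in IgG they made up 58.9% and 51.6% against 84.4% and 82.7%. Without the 6 bins the top 1% held 23.1% and 20.8% of the H3K9me3 fragments against 3.77% and 3.62% of those of IgG, a difference of 18.3 points with the same exact permutation p = 0.33. The bins of the assembly in which at least 50% of words are unique gave 22.8% and 19.2% against 5.20% and 3.95%. Another 17 bins, which shared under 5% of their words with the densest bin, stayed in wherever satellite bins were left out. They held 0.607% and 0.699% of the H3K9me3 fragments and 0.324% and 0.335% of those of IgG. The bin of the chromosome 4 sequence above is among them. Only exact words were matched, so diverged satellite copies may also have stayed in, and values without the satellite bins are not free of satellite-like sequence.

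Fragments placed in the satellite bins were long by their coordinates in every WT library. With 25-base reads in a tandem repeat, the ends may be placed in different units, so true lengths there are unknown. In the 6 bins the median was 350 and 337 bp in the H3K9me3 libraries and 320 and 327 bp in the IgG libraries. In the H3K27me3 and H3K4me3 libraries it was from 311 to 338 bp. In the rest of the top 1% the H3K9me3 medians were 181 and 175 bp against 137 and 146 bp in IgG, and in all other bins 181 and 176 bp against 100 and 127 bp. In the rest of the top 1%, 13.4% and 25.04% of H3K9me3 fragments were shorter than 120 bp, against 46.3% and 41.9% of IgG fragments.

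Dense bins came in runs and held duplicated, repeat-rich sequence. The 1987 bins formed 617 runs of adjacent bins, of which 318 were single bins and 104 had at least 5 bins and held 1176 of them. The longest ran for 760 kb, at chr5:94410001-95170000. By megabase, 172 of 2413 windows held any dense bin, and the 20 fullest held 1200 (60.4%). Repeat-masked bases made up 55.4% of the dense bins against 33.5% of all bins, and unique 25-base words 13.3% against 80.8%. Dense bins carried 13.3 starts of protein-coding genes per Mb against 8.68 over all bins and 17.7 pseudogene starts against 4.84, but 2.06 starts of long noncoding RNA genes against 3.93. Coding gene bodies touched 31.9% of dense bins and 47.0% of all bins. These contrasts were not tested, since neighbouring bins are not replicates.

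Sequence content also changed with H3K9me3 level over all bins. When all bins were split into 10 equal groups by H3K9me3 level, repeat-masked content went from 63.3% in the highest group to 23.7% in the lowest, and unique words from 38.6% to 92.6%. Coding gene starts were sparse at both ends, with 4.99 per Mb in the highest group, 13.1 in the third and in the fourth, and 5.18 in the lowest. Pseudogene starts went from 8.45 to 3.04 per Mb. The dense bins had less repeat-masked content than the highest group, at 55.4%, and more coding gene starts, at 13.3 per Mb. The highest group also held 33.7% and 33.3% of the IgG fragments and 24.8% and 13.8% of those of H3K4me3. H3K27me3 had 11.3% and 14.96% of its fragments there and more in the next group, at 17.98% and 20.5%. The H3K9me3 counts chose the order, and no test was made on it.

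**Figure D2:**
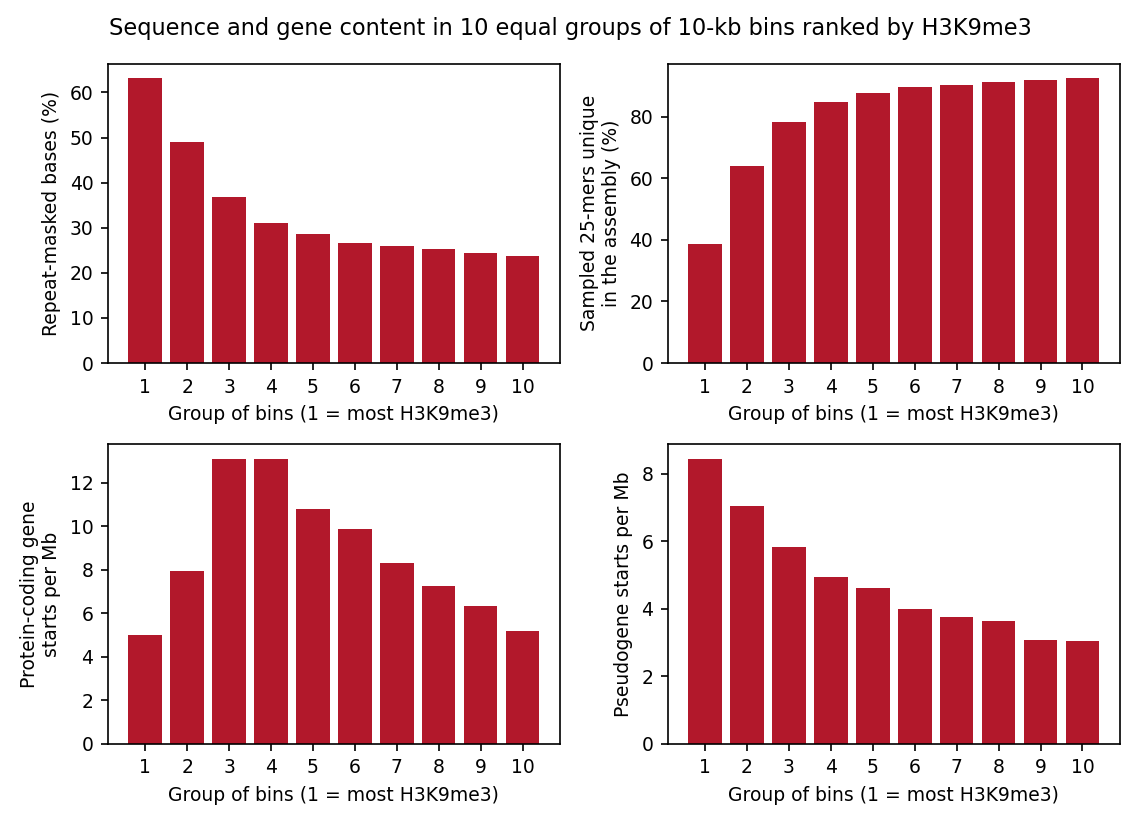
Sequence and gene content of all 10-kb bins in 10 equal groups ranked by H3K9me3 level (group 1 highest): repeat-masked bases (%), unique 25-base words (%), and coding gene and pseudogene starts per Mb, each bar the mean over a group. Repeat-masked content goes from 63.3% to 23.7%, and coding gene starts peak in the third and in the fourth group, at 13.1.

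Weighted by fragments, the mean repeat-masked content of the bin that held a fragment was 61.1% and 57.2% in the H3K9me3 libraries and 47.7% and 46.2% in the IgG libraries. The difference was 12.2 percentage points, with no overlap between the groups (exact permutation test, p = 0.33), or 25.5 points with every deposited fragment. Without the satellite bins it was 55.1% and 49.3% against 41.5% and 41.5%. In bins with at least 50% unique words the difference was 6.81 points. Coding gene bodies cover 40.3% of the autosomal bases. They held 30.6% and 35.6% of the H3K9me3 fragments against 39.8% and 38.2% of those of IgG, a difference of -5.89 points (exact permutation test, p = 0.33). Without the satellite bins, which overlap predicted genes, the shares were 21.8% and 26.6% against 34.9% and 34.2%. With every deposited fragment the difference turned to 0.167 points, with 10 kb added on either side of each gene it was -1.88 points with overlapping groups (p = 0.667, exact permutation test), and without H3K9me3 replicate 1 it was -3.42.

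The gene content of the dense bins was dominated by predicted and duplicated genes. Dense bins overlapped 369 of the 20807 coding genes (1.77%), of which 221 (59.9%) carry a predicted Gm name. Another 51 were vomeronasal receptor genes (pheromone receptors, 15.5% of 329 Vmn symbols) and 19 were zinc finger genes named Zfp (4.94% of 385), which encode DNA-binding proteins of the nucleus. Of the 22 Ugt genes, which encode glucuronosyltransferases of detoxification, 9 were among them, all overlapping transcription units of the Ugt1a locus that share fragments, as were 4 of 10 Speer genes, 3 of 7 Obox homeobox genes, 3 of 12 genes of the Sp symbol group and 2 of 5 Smok genes, which encode sperm motility kinases. Of the lists used below, 0 of 1118 olfactory receptors overlapped a dense bin, as did 0 of 39 Hox, 76 ribosomal protein, 35 spermatid and 25 imprinted genes, and these last 4 lists are too short to set a count of 0 apart from 1.77%. The lists hold coding genes only, so a count of 0 does not cover the sequence around them. The megabase chr7:59000001-60000000, which holds Snrpn and Snurf, had 37 dense bins. In it the windows chr7:59700001-59900000 were called higher, 5.63-fold above IgG, and overlap no coding gene. Unprocessed pseudogenes, the relics of gene duplication, overlapped dense bins at 209 of 1789 (11.7%), snoRNA genes at 150 of 1442 (10.4%), and lincRNA genes at 44 of 5209 (0.845%).

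The signal was denser at the centromere-proximal end of the chromosomes. Mouse autosomes are acrocentric, so their assembled sequence starts beside the centromere. The log2 density in the first 5 Mb relative to the rest was 2.80 and 2.94 in the H3K9me3 libraries and 2.06 and 1.84 in the IgG libraries, a difference of 0.92 (exact permutation test, p = 0.33, both libraries above both), or 2.51 with every deposited fragment. Without the satellite bins it was 1.47 and 1.52 against 0.34 and 0.54, a difference of 1.06. The first megabase stood highest, at 5.15 and 5.33 times the autosomal mean without the satellite bins, against 1.37 and 1.45 times in IgG. From 1 to 2 Mb the groups overlapped, at 1.90 and 2.04 times against 1.62 and 2.43 times in IgG. In each megabase from 2 to 5 Mb both H3K9me3 libraries again stood above both IgG libraries. Dense bins made up 8.31% of the bins of the first megabase and 3.34% to 4.05% of those of each of the next 4. Further in they made up 0.822% at 5 to 10 Mb, 2.86% at 10 to 20 Mb, 0.789% at 20 to 40 Mb and 0.389% beyond 40 Mb. With the satellite bins left out, 273 of the 429 dense bins in the first 5 Mb lay on chromosome 14, and without it dense bins made up 1.74% rather than 4.53% of the bins there, with 0 on chromosomes 1 and 15. With the satellite bins again left out, on 15 of the 19 chromosomes both H3K9me3 libraries stood above both IgG libraries in the first 5 Mb (chromosomes 5, 6, 12 and 17 did not), with the largest log2 densities on chromosome 14 (3.31 and 3.14), chromosome 11 (3.23 and 3.26) and chromosome 3 (2.35 and 2.54). In the last 5 Mb the order was the opposite, at -0.91 and -0.87 in H3K9me3 and -0.31 and -0.29 in IgG. That difference was -0.59 (exact permutation test, p = 0.33). It shrank to -0.18 in bins with at least 50% unique words and to -0.33 over the last 10 Mb, and was -1.18 with every deposited fragment. No dense bin lay between 1 and 5 Mb from the distal end.

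**Figure D3:**
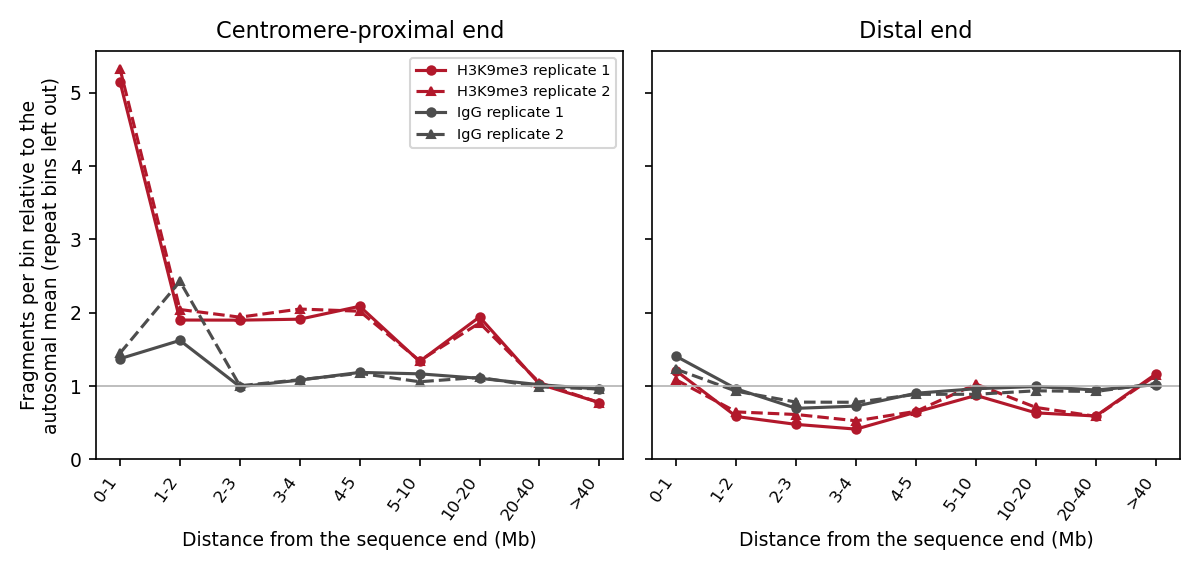
Fragments per bin relative to the autosomal mean against the distance from either end of the chromosome sequence (Mb), with the satellite bins left out; each line is 1 WT library. The H3K9me3 lines start at 5.15 and 5.33 in the first megabase and the IgG lines at 1.37 and 1.45.

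Chromosomes differed in how much of the mark they carried. With the satellite bins left out, chromosome 7 stood at 1.94 and 1.99 times the autosomal mean in the H3K9me3 libraries (1.03 and 1.03 in IgG), chromosome 14 at 1.82 and 1.72 (1.10 and 1.15) and chromosome 5 at 1.41 and 1.42 (0.966 and 0.953). These 3 chromosomes held 529, 549 and 252 dense bins. Chromosome 18 was among the lowest, at 0.722 and 0.722 against 1.17 and 0.989, and chromosome 15 held 1 dense bin.

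Bins were then tested one by one. limma-voom on 91486 bins with at least 10 fragments over the 4 libraries called 0 bins higher and 0 lower at an adjusted p under 0.05, while 21728 bins had an unadjusted p under 0.05. With the animal as a block it called 3552 higher and 11256 lower, and limma-trend called 25682 and 1408. A negative binomial test with a dispersion shared within abundance classes, added after the data were seen, called 3213 bins higher (3.51%) and 3404 lower (3.72%). Fewer bins were called in either direction when any 1 library was left out. Such fits hold 1 library in a group and take their spread from the other group alone. Of the 3213 higher bins, 1636 were dense bins, and their mean content of unique words was 27%. They formed 1534 runs, of which 967 were single bins and the longest spanned 310 kb. The median higher bin held 292 H3K9me3 fragments and 1 IgG fragment over both libraries of each. Of the higher bins, 43.8% had 0 IgG fragments and passed the filter through H3K9me3 alone, as did 33.3% of the bins not called. Among the lower bins both H3K9me3 libraries were below both IgG libraries in 2591, and the median lower bin held 8 H3K9me3 and 7 IgG fragments over both libraries of each.

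The 10 bins of highest H3K9me3 level in separate runs of called bins were read individually, by the negative binomial calls. The bin chr11:3190001-3200000, in Sfi1, which encodes a centrosome protein, and Drg1, which encodes a GTP-binding protein, held 1559 and 1305 FPM against 71.1 and 57.1 FPM in IgG. It lay 22.3-fold above IgG (log2 4.45), in a run of 10 called bins at the centromere-proximal end, and 80.0% of its words are unique. The bin chr4:3090001-3100000, which holds the chromosome 4 sequence above, had 442 and 452 FPM against 49.8 and 35.7 FPM, 10.5-fold. Both H3K9me3 libraries were above both IgG libraries in these bins, as the rule that chose the 10 bins required.

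At the end of chromosome 10, chr10:3110001-3120000 held 2391 and 1004 FPM against 121 and 485 FPM, and it lay 5.60-fold above IgG with wide gaps between replicates of both groups. The bin chr18:3000001-3010000 held 596 and 484 FPM against 42.7 and 121 FPM, 6.59-fold. The 4 bins so far all lie within 100 kb of the first assembled base of their chromosome.

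Away from chromosome ends, chr15:75080001-75090000 held 502 and 380 FPM against 28.4 and 28.5 FPM, 15.5-fold, with the genes Ly6i, Ly6a, Ly6c1, Ly6c2 and Ly6g, which encode surface proteins of blood cells, within 100 kb. The bin chr17:13550001-13560000, with the simple repeat, held 1658 and 1028 FPM against 128 and 121 FPM, 10.8-fold. On chromosome 5 the bins from 15000001, 15510001 and 15690001 lay 13.2-, 7.61- and 7.91-fold above IgG, in runs of 16, 11 and 14 called bins near Speer4e, Speer4d and Speer4c, members of a spermatogenesis-associated glutamate-rich family. In chr4:118540001-118550000, in the transmembrane protein gene Tmem125, H3K9me3 stood at 1124 and 641 FPM against 14.2 and 157 FPM, and H3K27me3 stood at 1069 and 1641 FPM in the same bin. With limma-voom the adjusted p of these 10 bins ran from 0.0807 to 0.259, so none passed there, and with the animal as a block all 10 passed (2.7e-05 to 0.00353).

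**Figure D4:**
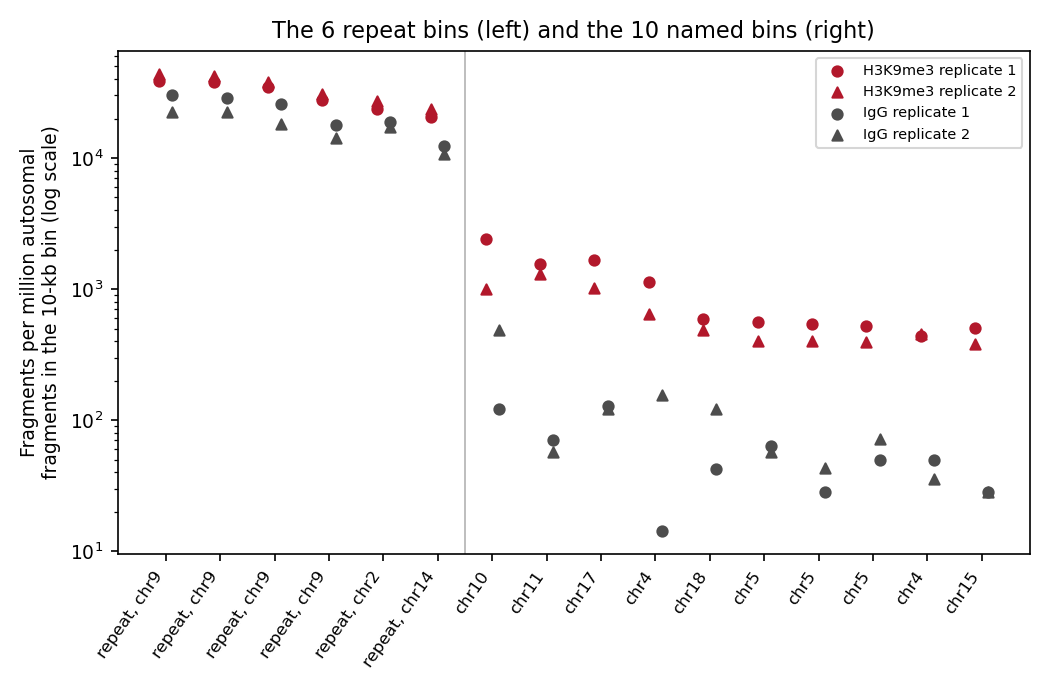
FPM (log axis) in the 6 satellite bins (left) and the 10 named bins (right), 1 point per WT library of H3K9me3 and IgG. Among the named bins all H3K9me3 points lie above both IgG points, as the rule that chose these bins required. The chromosome 11 bin had 1559 and 1305 against 71.1 and 57.1. The groups lie close together in the satellite bins.

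In 100-kb windows, which hold more IgG fragments each, limma-voom made calls. Of 23987 windows, 239 were higher in H3K9me3 (0.996%) and 467 lower (1.95%), with 4872 at an unadjusted p under 0.05. The negative binomial test called 1132 higher (4.72%) and 2739 lower (11.4%), all 239 and 467 among them, and with the animal as a block limma-voom called 863 and 5430. The median window had a log2 difference of -0.83. Setting that median to 0 gave 428 higher and 142 lower, and library sizes that include chromosomes X and Y gave 193 and 1347. The calls rested on the replicates: without H3K9me3 replicate 1 or replicate 2 no window was called, without IgG replicate 1 there were 19 higher and 99 lower, and without IgG replicate 2 there were 20 and 415. Windows with at least 50% unique words gave 7 higher and 174 lower, and H3K9me3 libraries thinned to the IgG depth gave 0 and 0.

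The 239 windows took 17.9% and 16.7% of the H3K9me3 fragments and 3.27% and 3.52% of those of IgG, and their median levels were 533 and 457 FPM against 78.2 and 92.7 FPM. They lay in 73 runs. Chromosomes 7 and 14 held 76 and 66 of them (59.4% together), and 55 (23.0%) started within the first 5 Mb of sequence, where 3.94% of all windows start. Unique words made up 12.7% of their sequence. They overlapped 369 of the 20807 coding genes (1.77%), among them 220 of 1228 with Gm names, 66 of 329 vomeronasal receptors, 15 of 385 Zfp genes, 10 of 34 secretoglobins (small secreted proteins), 9 of 22 Ugt genes (the Ugt1a locus) and 4 of 10 Speer genes, and 62 of the windows overlapped no coding gene.

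The longest run, chr5:93500001-95800000, covered 2300 kb and 27 coding genes, nearly all of them predicted. Its H3K9me3 level was 15128 and 13194 FPM against 2040 and 2611 FPM, 6.09-fold. On chromosome 7, the runs at chr7:20100001-21600000 and chr7:21700001-23300000 hold arrays of Vmn1r genes and lay 6.20- and 5.40-fold above IgG. The run chr7:8400001-9200000 holds Vmn2r45, Vmn2r40, Vmn2r39 and Vmn2r38 and lay 7.07-fold above. The Vmn1r and Vmn2r genes are the 2 receptor families of the vomeronasal organ.

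Further runs held other duplicated families. The run chr7:14700001-15700000 holds Obox1, Obox2 and Obox3, homeobox genes of oocytes and early embryos, and lay 9.11-fold above IgG, at 5930 and 5172 FPM against 462 and 756 FPM. The run chr4:146900001-147500000 holds Zfp978, Zfp982, Zfp988, Zfp989, Zfp991 and Rex2 and lay 8.80-fold above, at 5638 and 6389 FPM against 654 and 713 FPM. The run chr7:32600001-33300000 lay 7.41-fold above, and 4 of its 7 windows hold 8 secretoglobin genes from Scgb2b15 to Scgb1b19 while the other windows overlap no coding gene.

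Single windows were then taken by size of the log2 difference, after their values were seen. The window chr7:17500001-17600000 held 1481 and 1179 H3K9me3 fragments against 0 and 2 IgG fragments (log2 5.60, SE 1.03, limma-voom adjusted p = 0.0402), and overlaps no coding gene. The window chr4:147300001-147400000, with Zfp988 and Zfp978, held 6206 and 5202 fragments against 17 and 12 (log2 3.97, SE 0.32, limma-voom adjusted p = 0.0098). The window with Obox2 and Obox1, from 15300001 on chromosome 7, held 2681 and 2065 fragments against 5 and 7 (log2 3.91, SE 0.56). Both H3K9me3 libraries stood above both IgG libraries in all 3, as in all 239 windows called higher and in 3270 of all 23987 windows.

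In the lower windows IgG stood above its usual level and H3K9me3 mostly below its own. The fit chose these windows by the same values, so this order follows in part from the choice. The 467 windows had median levels of 7.44 and 10.2 FPM in H3K9me3, where all windows had 14.6 and 17.2, and of 107 and 64.2 FPM in IgG, where all had 28.4 and 28.5. In 344 of them H3K9me3 was below the all-window median in both libraries. The first by size, chr17:4600001-4700000, held 57 and 285 H3K9me3 fragments against 411 and 1353 IgG fragments (log2 -7.19, SE 0.84), and overlaps no coding gene. The window chr18:84500001-84600000, in Zfp407, held 28 and 31 fragments against 417 and 52, and chr13:9300001-9400000, in Dip2c, held 28 and 26 against 385 and 33. IgG replicate 1 stood far above replicate 2 in both.

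Gene bodies of coding genes were tested next. limma-voom called 0 of 13057 genes higher and 0 lower, with 3263 at an unadjusted p under 0.05. With the animal as a block it called 347 and 2922, and limma-trend called 1725 and 313. The negative binomial test called 348 higher (2.67%) and 965 lower (7.39%) around a median log2 difference of -1.12, and 676 and 175 when that median was set to 0. Without 1 library it called 177 higher and 213 lower (H3K9me3 replicate 1), 236 and 895 (H3K9me3 replicate 2), 132 and 352 (IgG replicate 1) and 208 and 511 (IgG replicate 2). With the block, 37 vomeronasal receptor genes were higher and 6 lower, 37 zinc finger genes higher and 44 lower, and 28 clustered protocadherins higher and 0 lower. List medians below are read against the -1.12, since their own sign changes with scaling.

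Among 278 vomeronasal receptor genes tested, of 326 in the list, 37 were higher and 3 lower by the negative binomial test, with a median log2 difference of 0.996. Of all genes tested, 2.67% were higher and 7.39% lower. The whole list stood at 9.92 and 10.5 FPM per 10 kb in H3K9me3 against 3.15 and 4.21 FPM per 10 kb in IgG. Of the 278, 116 (41.7%) had 0 IgG fragments and reached the minimum of 10 fragments through H3K9me3 alone. With these set to their lower bound the median was -0.59, against -1.58 for all genes. In gene bodies with at least 50% unique words 10 were higher, where all genes gave 133 higher of 12105 tested. Vmn2r32 had 161 and 184 fragments against 0 and 0, and Vmn2r89 had 160 and 149 against 0 and 0. They were at least 4.68- and 4.19-fold higher, taking 3 fragments over both IgG libraries as the floor. Vmn1r22 was lower, with 9 and 8 fragments against 0 and 10, so its direction rested on IgG replicate 2 alone.

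Of 314 zinc finger genes tested, 35 were higher and 11 lower, with a median of -0.20, where 2.67% of all genes tested were higher and 7.39% lower. Among those with unique words 15 were higher, where all genes gave 133 of 12105. The list stood at 6.82 and 7.46 FPM per 10 kb in H3K9me3 against 5.30 and 4.04 in IgG. Zfp820 had 165 and 147 fragments against 0 and 0, and Zfp595 had 167 and 119 against 0 and 0. The lowest, Zfp407, had 60 and 90 fragments against 423 and 69. With genes at 0 in IgG (20.7% of those tested) set to their lower bound the median was -0.97, against -1.58 for all genes. Olfactory receptors (1118 genes) stood at 2.29 and 2.71 FPM per 10 kb in H3K9me3 against 2.86 and 2.92 in IgG. Of the 297 tested, 58.2% had 0 IgG fragments, the median log2 difference was 0.14, or -1.68 at the lower bound, and 2 were higher and 8 lower. The split turned with the setting, to 12 and 3 with the median of all genes set to 0 (all genes 676 and 175), 3 and 23 with limma-voom and the block (347 and 2922), and 142 and 1 with limma-trend (1725 and 313). Olfr344 was higher with 95 and 64 fragments against 0 and 0, and Olfr2 was lower with 7 and 10 against 42 and 24.

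The clustered protocadherins, adhesion molecules of neurons encoded in tandem arrays on chromosome 18, gave 31 higher and 0 lower of 57, with a median of 1.76. The calls were 12 of 12 Pcdha, 2 of 2 Pcdhac, 11 of 12 Pcdhga and 6 of 6 Pcdhgb genes, and no Pcdhb gene was called. Pcdhb22, with 43 and 46 fragments against 0 and 0, did not pass (negative binomial test, adjusted p = 0.115). In these arrays long transcription units overlap and share fragments, so the 31 genes are not separate observations. Of all genes tested, 2.67% were higher and 7.39% lower. Among the 57, 15 (26.3%) had 0 IgG fragments, and at the lower bound the median was 1.47, against -1.58 for all genes. The list stood at 7.75 and 12.6 FPM per 10 kb in H3K9me3 against 2.13 and 3.65 in IgG, and at 38.2 and 51.4 in H3K27me3. Its sequence is mostly unique (80.9% of words), and 31 genes were again higher in the fit on unique gene bodies. No member overlapped a dense bin.

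Speer genes had the highest H3K9me3 level per length of the lists, 47.4 and 60.0 FPM per 10 kb against 23.8 and 23.9 in IgG. Of the 10, 2 were higher and 1 lower, against 2.67% and 7.39% of all genes tested, and the list is too short to set these counts apart from those shares. H3K4me3 stood at 616 and 470 FPM per 10 kb over the same genes. Speer4e was higher, with 260 and 277 fragments against 2 and 4, and Speer4a, with 88 and 74 against 0 and 1, did not pass (adjusted p = 0.124). With limma-voom and the animal as a block Speer4e did not pass either (adjusted p = 0.0553), and 0 Speer genes were higher and 1 lower, whereas the fit on unique gene bodies gave 0 and 0. Only 28.3% of the words in these genes are unique.

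Hox genes, the classic Polycomb targets, gave 0 calls of 31 by the negative binomial test. With limma-voom and the block 1 was higher (Hoxc5, adjusted p = 0.0451), with the median of all genes set to 0 it was 1, and with limma-trend 22. Their median log2 difference was 0.24, 30 of the 31 lay above the all-gene median, but 23 had 0 IgG fragments and passed the filter through H3K9me3 alone, and at the lower bound the list's median was -1.58, the same as that of all genes. They stood at 5.67 and 4.84 FPM per 10 kb in H3K9me3 against 2.09 and 2.31 in IgG, but at 145 and 281 in H3K27me3. The 76 ribosomal protein genes stood at 0.743 and 1.54 against 3.10 and 3.74, and the 6 tested gave 0 calls, or 2 lower with limma-voom and the block. The 14 tested of 35 genes used by spermatids gave 0 higher and 3 lower, with a level over the whole list of 2.02 and 2.47 FPM per 10 kb against 4.41 and 5.60. The 3 lower calls became 6 with limma-voom and the block, 1 with the median of all genes set to 0 and 2 without the satellite bins, where all genes gave 2922, 175 and 671 lower, against 965 (7.39%) in the first fit. The lowest, Izumo1, which encodes the sperm protein that binds the egg, had 3 and 12 fragments against 4 and 8. Imprinted genes gave 0 higher and 3 lower of 15, with Inpp5f lowest at 17 and 23 fragments against 23 and 10. With limma-trend they gave 3 higher and 1 lower, with the median of all genes set to 0 they gave 0 and 1, and with the block 0 and 4.

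The shorter lists gave few calls by the negative binomial test, and other counts with other settings. Keratin-associated proteins gave 0 higher and 2 lower of 12, and killer cell lectin-like receptors 1 higher and 1 lower of 18, against 2.67% higher and 7.39% lower of all genes tested. With limma-trend these were 9 and 0, and 7 and 0, where all 13057 genes tested gave 1725 and 313. With limma-voom and the block they were 0 and 2, and 1 and 4, where all genes gave 347 and 2922. Of the genes tested in these lists, 10 of 12 and 6 of 18 had 0 IgG fragments and passed the filter through H3K9me3 alone. At the lower bound the list medians were -2.25 and -0.32, against -1.58 for all genes. Pramel and Oog genes (10 tested), defensins (7), major urinary proteins (19) and core histone cluster genes (3) gave 0 calls by the negative binomial test and with the block, whereas limma-trend called 7, 1, 6 and 0 of them higher. Of those tested, 8, 3, 11 and 2 had 0 IgG fragments and passed the filter through H3K9me3 alone. At the lower bound the medians of these lists were -1.45, -1.12, -1.56 and -1.62. None of the 35 taste receptor genes of type 2 held enough fragments for a test.

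**Figure D5:**
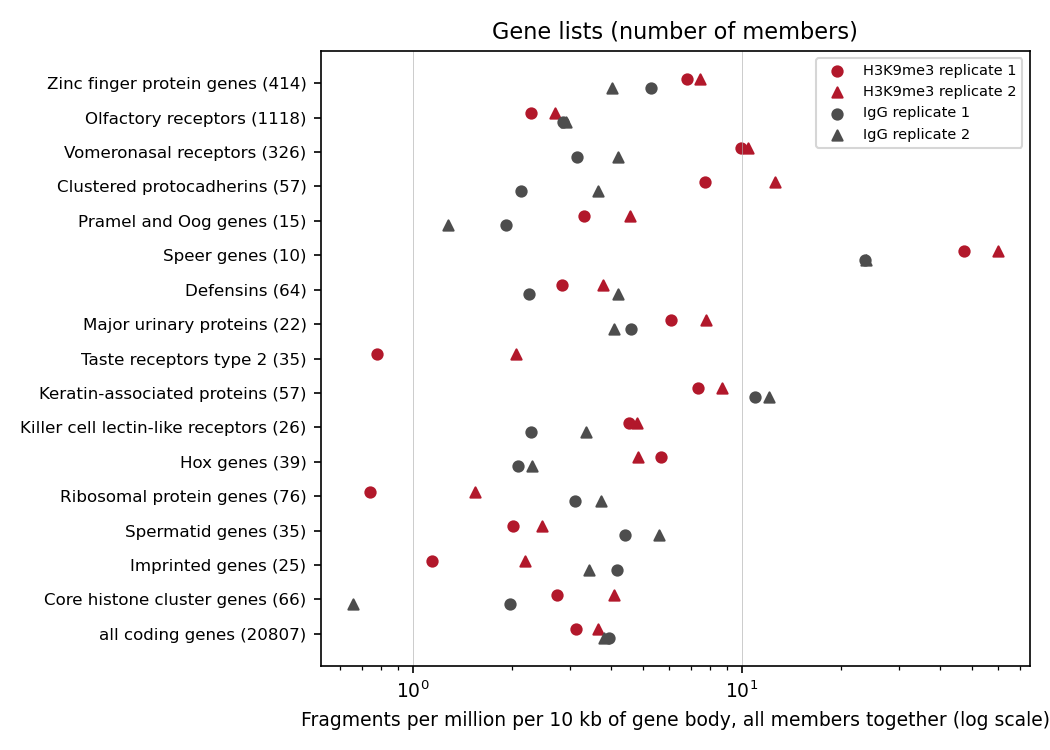
FPM per 10 kb of gene body (log axis) summed over each gene list, 1 point per WT library of H3K9me3 and IgG. Speer genes stand highest in H3K9me3 at 47.4 and 60.0, and ribosomal protein genes lowest at 0.743 and 1.54; the taste receptors had 0 IgG fragments and have no IgG point.

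By symbol family, against 2.67% of all genes tested, the 348 genes called higher included 121 of 689 Gm genes, 37 of 281 Vmn genes, 32 of 291 Zfp genes, 9 of 75 Cyp genes, 9 of 20 Ugt genes (the overlapping Ugt1a units), 6 of 11 Skint genes and 3 of 6 Obox genes, but 3 of 268 Slc genes and 2 of 303 Olfr genes. Skint10, of a family tied to skin T cells, had 292 and 308 fragments against 0 and 0, at least 8.14-fold higher. Obox2 had 267 and 183 fragments against 0 and 0, at least 6.11-fold higher. Ugt1a1, the bilirubin-conjugating enzyme, had 967 and 635 fragments against 0 and 2, a ratio of 32.6 with a 95% counting interval of 9.01 to 270. Sp110, which encodes a nuclear body protein, had 1685 and 1548 fragments against 1 and 5, a ratio of 21.9. The predicted E330014E10Rik, with 408 and 352 against 1 and 0, had a ratio of 30.9 (5.54 to 1224).

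The other genes named by size, with 0 IgG fragments in both libraries, were Gm7145, Gm5930, Gm3371, Vmn1r68, Flg2 and Zfp455, and their lower bounds ran from 3.60 to 6.05. In the whole group of 15 both H3K9me3 libraries stood above both IgG libraries, as the rule required, and with limma-voom the adjusted p of each was 0.149, or 0.000177 to 0.00832 with the animal as a block. The genes named lower were the reverse case, with IgG fragments piled up in the gene: Dpp9, a dipeptidyl peptidase, had 7 and 26 fragments against 62 and 136, and Myo7a, an unconventional myosin, had 7 and 28 against 63 and 95. Ifit2, an interferon-induced gene, had 14 and 9 fragments against 104 and 12, and Dpy19l4 had 19 and 26 against 162 and 30. Vnn1 and Usp17la completed the list.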

How the data were processed

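The authors aligned paired 25-base reads to mm10 with Bowtie2 (2.2.5 in the study's methods, 2.3.4.3 in the submitters' processing notes) and deposited lists of fragments, given by the chromosome, start, end and length of each; handling of multi-mapping reads was not stated. The study's methods state that PCR duplicates were removed with Picard, but the deposited lists still hold repeated coordinates (39.4% to 81.5% of fragments in the 4 libraries compared), so each coordinate was used once; which repeats are PCR copies could not be told apart. Fragments were counted by midpoint in 10-kb bins with at most 50% N (239597 of 246285), in 100-kb windows and in gene bodies of the annotation. Features with at least 10 fragments over the 4 libraries were tested with limma-voom (limma 3.58.1, R 4.3.3) at a Benjamini-Hochberg adjusted p under 0.05, with library size as the scaling. A negative binomial likelihood-ratio test was added after seeing the data. Scripts were tested on simulated data. Shares and densities were compared by exact permutation over libraries.

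The replicate number marks the same animal in both groups, and deviations of same-numbered libraries correlated at 0.0036 over bins and 0.0471 over windows. In the sample titles each replicate also has a date-like code of its own. The animal, and the block named after it, cannot be told apart from whatever that code marks. Bins were named by level (10), genes by log2 difference (15 higher and 6 lower, at most 3 of a family), and list members as the 2 highest and 1 lowest, of which lists with no call are given by counts. Members and lists were chosen with earlier results of these data known. Replicates are single animals, intervals and floors cover counting error only, and repeats come from the lower-case bases of the assembly. Left out were the KO libraries and chromosomes X and Y.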

Additional observations from a re-analysis of the deposited data

How the results depend on the processing

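The share and position tests were limited by 2 against 2 libraries. Most 10-kb bins held 0 fragments in each IgG library, so an absence of H3K9me3 could not be shown in single bins or short genes. With limma-voom, leaving out 1 library gave from 0 to 70 bins higher and 0 to 3003 lower, 0 to 20 windows higher and 0 to 415 lower, and 0 to 17 genes higher and 0 to 207 lower. With the negative binomial test the ranges were 82 to 1074 bins higher and 404 to 2213 lower, 520 to 907 windows higher and 914 to 3433 lower, and 132 to 236 genes higher and 213 to 895 lower.

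Other settings that moved a count by over 1.5 times gave these values, and the cause was not tested. For bins, limma-trend called 25682 higher and 1408 lower, the replicate block 3552 and 11256, and the negative binomial test 3213 and 3404. That test called 552 higher with unique 25-mers, 1880 higher and 1040 lower with H3K9me3 thinned to the IgG depth, and 652 lower at a minimum of 30 fragments. For windows, the values were 605 and 6600 with every deposited fragment, 428 and 142 with the median set to 0, 539 and 306 with limma-trend, 863 and 5430 with the replicate block, 7 and 174 with unique 25-mers, 0 and 0 with thinning, 1347 lower with X and Y in the library size, and 1132 and 2739 with the negative binomial test. For that test they were 2420 and 684 with the median set to 0, 727 and 1410 with thinning, and 515 higher with unique 25-mers. For genes, limma-trend called 1725 and 313, the replicate block 347 and 2922, and the negative binomial test 348 and 965. That test called 676 and 175 with the median set to 0, 133 higher with unique 25-mers and 583 lower with thinning.

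The gene-body share turned to 0.167 points with every deposited fragment. Leaving out 1 library moved the top 1% difference between 20.4 and 23.4 points, the centromere-proximal difference between 0.81 and 1.03, and the gene-body share between -8.35 and -3.42. For the top 1%, a left-out H3K9me3 library still ranked the bins. That difference stayed at 21.9 points without H3K9me3 replicate 1 and without H3K9me3 replicate 2. Of 599 alternatives for 62 named bins, windows and genes, 510 kept direction and side of the threshold, 75 no longer passed, 5 newly passed and 9 reversed, all 9 in genes that were not called. Pcdhb2 gave 0.89 with the median set to 0 and from -1.22 to 0.36 when a library was left out, which also gave Catsper3 from -0.49 to 1.38, Pgk2 -0.76 (both IgG libraries in turn) and Igf2r from -0.57 to 1.804. The shares and densities come from no fit and have no blocked value.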
